A study of Mus musculus with 20 samples.

Results

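Contractile actin cytoskeleton genes encode the thin filaments of smooth muscle and of stress fibers, and the proteins that bundle, cover and anchor them. They were chosen by name, with earlier results of these libraries known: Acta2, Actg2, Tagln, Cnn1, Myl9, Tpm1, Tpm2, Cald1, Flna and Flnc, 10 of the 54986 genes in the table. All 10 were found, and 7 of them reached 1 CPM, the unit of read counts scaled to a common library total, in at least 2 of the 20 libraries. Actg2, Myl9 and Tpm2 did not.

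RNA from NMuMG, an epithelial line from normal mouse mammary gland grown in vitro in serum-containing medium, was sequenced in 10 conditions of 2 libraries each. In one kind of library were NMuMG cells, NMuMG cells treated with TGFβ for 4 d (TGFb in the plots), NMuMG cells with hnRNP E1 (Pcbp1) silenced by shRNA (E1KD), and the M1P and L1P lines. M1P was recovered from the primary tumor and L1P from the lung metastases that E1KD cells formed in NOD/SCID mice, and both carry the hnRNP E1 shRNA and were cultured before sequencing. The second kind held NMuMG cells with an empty vector, 2 single clones that overexpress Platr18 (clone 12 and clone 16), hnRNP E1-silenced cells given either a scrambled shRNA control (E1KD SCR) or an shRNA to Platr18 (E1KD Platr18 KD). The labels do not say whether the libraries of a condition came from separate cultures, so the spread between them may be technical.

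The kinds of library were told apart by 2 genes. Mt-Rnr2 was at 333 to 492 CPM in the first kind and at 113870 to 165150 CPM in the second, and Rn7sk was at 0.419 to 8.996 CPM against 6461 to 10097 CPM. Comparisons were therefore made within a kind. From the steps between low values, the first kind had 50.8 to 60.0 M reads per library and the second 63.0 to 147 M, so that 3 reads were worth between 0.04998 and 0.0591 CPM or between 0.0204 and 0.0477 CPM. Pcbp1 was at 287 and 312 CPM in NMuMG and at 16.6 and 14.2 CPM in E1KD, and at 32.3 and 32.3 CPM in the empty vector cells and 3.28 and 3.46 CPM in E1KD SCR. Platr18, listed as Lncenc1, was at 3.68 and 3.06 CPM in the empty vector cells, at 3092 and 3096 CPM in clone 12, at 813 and 820 CPM in clone 16, at 2.92 and 3.10 CPM in E1KD SCR and at 0.136 and 0.170 CPM in E1KD Platr18 KD.

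Smooth muscle cells and myofibroblasts contract when myosin II pulls on actin filaments. The contractile actins (Acta2, Actg2) form these filaments, tropomyosins (Tpm1, Tpm2) wind along them, and calponin 1 (Cnn1), caldesmon (Cald1) and transgelin (Tagln) bind them. Myl9 is a regulatory light chain of myosin II, and the filamins (Flna, Flnc) crosslink filaments and tie them to membrane receptors. Acta2 is a widely used marker of myofibroblasts and of TGFβ responses, and many of these genes are known targets of serum response factor (Srf), which binds CArG boxes, and of TEAD factors, which bind the MCAT motif.

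The RefSeq promoters of 3 members that figure in the largest differences below are given because their pathway is known for these motifs. Each line is the 250 bases before a RefSeq start on GRCm38.p6, 5′ to 3′. Capitals mark the MCAT motif CATTCC, or GGAATG on the other strand, and CArG boxes with at most 1 G or C in their core. A match is a description of the letters and not a bound site. The Acta2 window (chr19:34255374-34255623, minus strand) holds 1 MCAT motif and 2 such boxes, the first start of Cald1 (chr6:34598254-34598503, plus strand) holds 1 MCAT motif, and the second start of Flnc (chr6:29433006-29433255, plus strand) holds 1 MCAT motif.
Acta2: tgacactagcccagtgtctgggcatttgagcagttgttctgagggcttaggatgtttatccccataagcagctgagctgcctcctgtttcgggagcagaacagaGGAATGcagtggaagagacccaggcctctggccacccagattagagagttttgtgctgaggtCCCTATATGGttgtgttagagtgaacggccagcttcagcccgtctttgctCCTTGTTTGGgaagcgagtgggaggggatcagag
Cald1: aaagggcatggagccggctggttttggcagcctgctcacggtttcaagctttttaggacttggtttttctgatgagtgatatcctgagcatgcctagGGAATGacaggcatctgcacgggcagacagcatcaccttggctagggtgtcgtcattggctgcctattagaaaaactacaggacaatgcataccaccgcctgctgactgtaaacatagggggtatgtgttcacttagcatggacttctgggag
Flnc: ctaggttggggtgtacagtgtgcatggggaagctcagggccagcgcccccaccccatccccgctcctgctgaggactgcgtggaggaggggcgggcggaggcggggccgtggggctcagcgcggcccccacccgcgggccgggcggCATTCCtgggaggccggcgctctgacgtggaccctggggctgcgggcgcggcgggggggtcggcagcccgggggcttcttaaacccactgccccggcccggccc
Over the 10 windows that were searched for 8 members (250 bases before to 50 after a start, with 2 starts each for Cald1 and Flnc, both strands), 6 held the MCAT motif, which was present in 14.7% of all 32851 promoter windows. The 2 Flnc windows overlap and share the same match. A CArG box without G or C in its core was found in 1 member window, that of Myl9, and in 1.63% of all windows. With at most 1 G or C in the core there were 3 member windows, of Acta2, Myl9 and Flnc, against 9.98% of all windows. The windows of Cnn1 and Tpm2 and the second start of Cald1 held neither motif. Windows for Actg2 and Tagln were not used here.

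Per kilobase of merged exon (GENCODE M21), the members spanned several orders of magnitude. In NMuMG cells Flna was at 41.2 CPM per kb, Tpm1 at 35.0 and Cald1 at 10.7, whereas Tagln was at 0.230, Cnn1 at 0.0496, Tpm2 at 0.0154 and Acta2 at 0.00806 CPM per kb. The filament crosslinker, a tropomyosin and caldesmon were thus the abundant members in these cells. After TGFβ the order was Tpm1 at 123, Flna at 69.8, Cald1 at 61.8 and Tagln at 4.10 CPM per kb, with Acta2 at 0.755 CPM per kb. Tagln overlaps Pcsk7 and an antisense gene on the other strand, which reached 23.8 and 9.21 CPM. Whether counting used the strand is not given in the sources used here, so reads of Tagln and of these genes cannot be told apart. Of the 2146 different windows of 50 bases in Acta2 transcripts, 7 were shared with Actg1 and 0 with Actb, Acta1, Actc1 or Actg2, and no other member shared a window with the copies compared.

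TGFβ is a classical inducer of epithelial-mesenchymal transition, and the comparison with untreated NMuMG cells asks which contractile genes differ after exposure. Acta2, Tagln, Cnn1, Tpm1 and Cald1 were higher after TGFβ. Acta2, smooth muscle actin, was at 0.0354 and 0 CPM in NMuMG and at 1.32 and 2.00 CPM after TGFβ. Both treated libraries lay above both untreated ones, at 79 and 120 reads against 2 and 0. The ratio of the means was 93.7, with a 95% exact interval of 24.8 to 756 that covers counting error alone.

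Tagln, an actin-bundling protein of smooth muscle, was at 0.481 and 0.434 CPM in NMuMG and at 8.04 and 8.26 CPM after TGFβ, a ratio of 17.8 (95% exact interval 13.4 to 24.2). Cnn1, which restrains actomyosin, was at 0.177 and 0.0943 CPM and at 1.57 and 1.52 CPM, a ratio of 11.4 (6.65 to 20.5). Neither gene's groups overlapped. Acta2 and Cnn1 stayed at 2.00 CPM or less also after TGFβ, so their large ratios are between low levels.

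Tpm1 and Cald1 were abundant in both conditions. Tpm1 was at 226 and 229 CPM in NMuMG and at 774 and 822 CPM after TGFβ, a ratio of 3.52. Cald1, which binds actin, myosin and calmodulin, was at 128 and 130 CPM and at 715 and 773 CPM, a ratio of 5.77. These were differences between groups that lay far apart relative to the spread within each of them. On the log2(CPM + 1) scale, which understates the change of low genes, the difference was 1.37 for Acta2, 2.65 for Tagln, 1.16 for Cnn1, 1.81 for Tpm1 (limma standard error 0.0874) and 2.52 for Cald1 (standard error 0.0827).

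The other members differed less. Flna was at 387 and 388 CPM in NMuMG and at 607 and 706 CPM after TGFβ, 0.75 on the log2 scale. Flnc, the muscle filamin, was at 0.0354 and 0.0189 CPM and at 0.284 and 0.766 CPM, 63 reads against 3 in all. Myl9 was at 0 in both NMuMG libraries and at 0.134 and 0.133 CPM after TGFβ, 8 reads in each. Actg2 reached 0.0835 and 0.117 CPM after TGFβ, and Tpm2 was at 0.0167 and 0 CPM. Of the 10 members, 5 differed by at least 1 on the log2 scale without overlap of the libraries, all 5 higher after TGFβ, where 5.88% of all 17106 genes tested were higher in that way, 7.78% lower and 13.7% either. The median difference was 0.96 over the members and -0.08 over all genes tested. Since the members were picked with these values known, the count is a description.

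**Figure D1:**
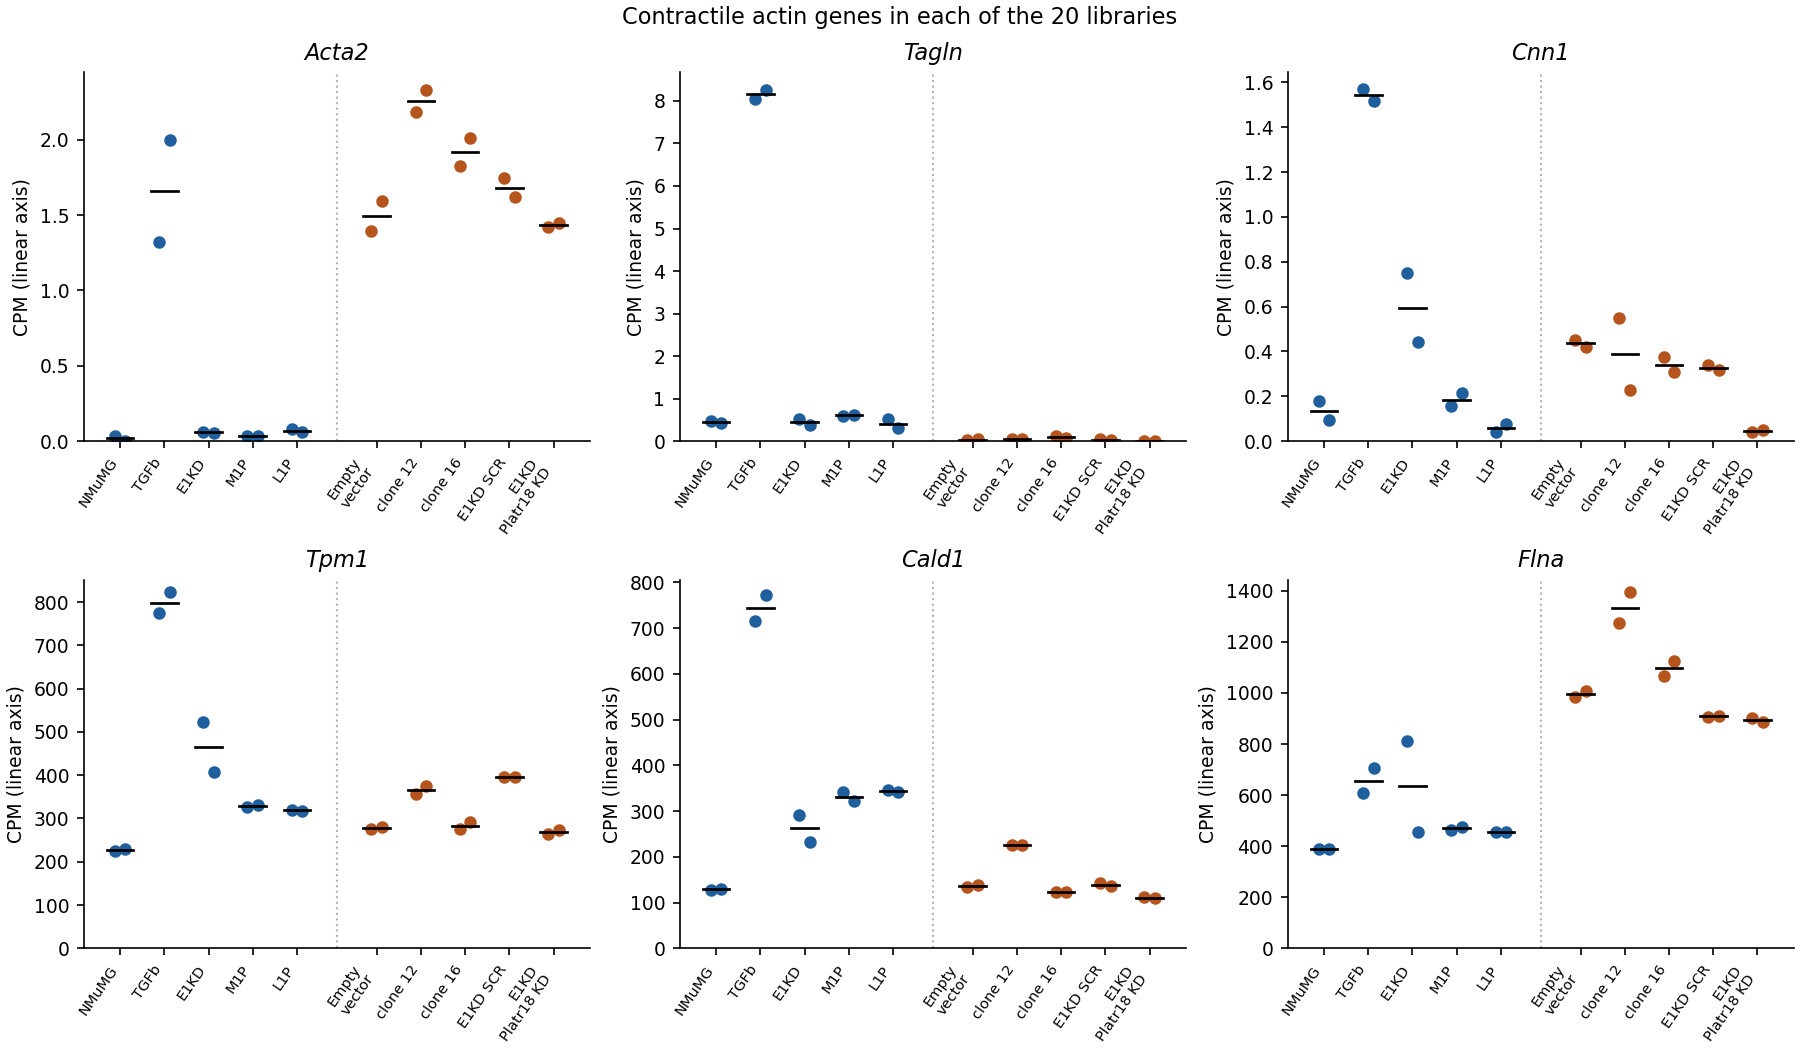
Level of 6 members in each of the 20 libraries, in CPM on a linear axis from 0. Points are libraries, bars are the means of 2, and blue and orange mark the 2 kinds of library, which are not comparable across the dotted line. Acta2, Tagln and Cnn1 stand out after TGFβ in the first kind, at 1.32 to 2.00, 8.04 to 8.26 and 1.52 to 1.57 CPM, and Tpm1 and Cald1 are highest there too.

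Markers of other cell types moved with TGFβ as well. Over 8 fibroblast markers the summed level was 0.637 to 0.830 CPM in NMuMG and 42.9 to 51.6 CPM after TGFβ, of which only Pdgfrb and Col1a1 had at least 1 CPM in both treated libraries. The 7 markers of smooth muscle and pericytes summed to 0.321 to 0.336 CPM in NMuMG and to 2.58 to 2.99 CPM after TGFβ, and Myh11, the smooth muscle myosin, was at 0 in both NMuMG libraries and at 0.0167 and 0.0167 CPM after TGFβ. The 6 markers of myoepithelium summed to 0.189 to 0.283 CPM in NMuMG and to 0.668 to 1.1 CPM after TGFβ. None of them had 1 CPM in both treated libraries, and Krt5, Trp63 and Oxtr had 3 reads or fewer there. The part of these markers in the result was not tested. The 10 markers of simple epithelium summed to 2935 to 2989 CPM in NMuMG and to 1762 to 2088 CPM after TGFβ. Krt19 was at 475 and 495 CPM against 16.7 and 19.6 CPM, Cdh1 at 232 and 237 CPM against 129 and 137 CPM, and Ocln at 18.6 and 18.9 CPM against 9.51 and 9.03 CPM, whereas Cldn4 was at 0.124 and 0.113 CPM against 18.5 and 20.2 CPM. Krt8 and Krt18 were above 1 CPM in both conditions, and Epcam, Cldn3, Cldn7 and Esrp1 had 3 reads or fewer. In bulk RNA, more cells with a transcript and more transcript per cell cannot be told apart.

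Of 65 other genes of the contractile pathway, 55 could be tested. After TGFβ 19 rose and 5 fell at an unadjusted p under 0.001 and a fold change of at least 1 on the log2 scale (limma), where 13.5% of all genes tested were called, 5.85% as higher and 7.66% as lower. The median fold change over the 55 genes was 0.41. Acta1, the actin of skeletal muscle, rose from 0.0354 and 0.0189 CPM to 16.2 and 17.3 CPM (log2 fold change 4.11, standard error 0.0737, Benjamini-Hochberg adjusted p = 1.1e-14 from limma). Rhob, a small GTPase of the actin cytoskeleton, rose from 33.0 and 36.1 CPM to 307 and 335 CPM (3.18, adjusted p = 3.5e-13 from limma). Palld, which organizes stress fibers, rose from 11.8 and 13.3 CPM to 108 and 115 CPM (3.05, adjusted p = 1.9e-11 from limma).

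Gsn, which severs and caps filaments, rose by 3.13 (adjusted p = 8.7e-09 from limma), and Zyx, a focal adhesion protein, by 2.78 (adjusted p = 2.7e-10). By role, 4 of 10 tested α-actinins and stress fiber adaptors rose and 1 fell, 2 of 3 calponins and transgelins rose, 2 of 5 focal adhesion anchors rose, and 2 of 6 myosin II genes rose. Fhl1, a LIM protein of muscle, fell from 12.9 and 11.8 CPM to 0.384 and 0.167 CPM (-3.39, adjusted p = 1.3e-11 from limma). Vil1, the villin of epithelial microvilli, fell by 2.45, Rnd3, an atypical small GTPase, fell by 1.57, Mylk, the kinase that phosphorylates the myosin light chain, fell by 1.51 and Csrp2 fell by 1.47. Of the regulators, Mkl1 (MRTF-A), a coactivator of Srf that senses actin, rose by 1.13 (adjusted p = 9.8e-07 from limma). Srf and Mkl2 were higher by 0.51 and 0.41 (adjusted p = 0.0020 and 0.0012 from limma), under the fold limit. Myocd, the smooth muscle coactivator of Srf, did not exceed 0.0370 CPM in any library.

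Silencing of hnRNP E1, a poly(C)-binding protein that represses translation of transcripts of the transition, was compared with NMuMG cells next. Flnc stood apart. It was at 0.0354 and 0.0189 CPM in NMuMG and at 153 and 91.4 CPM in E1KD, which is 2 and 1 reads against 7793 and 4946. The ratio of the means was 4512, with a 95% exact interval of 1516 to 21498 because of the 3 reads in NMuMG. On the log2 scale the difference was 6.86. Per kb, Flnc went from the ninth place among the 10 members in NMuMG, at 0.00289 CPM per kb, to the fourth in E1KD, at 13.0.

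Tpm1 was at 524 and 407 CPM in E1KD and Cald1 at 291 and 233 CPM, both above the NMuMG libraries, with log2 differences of 1.02 and 1.01. Cnn1 was at 0.748 and 0.443 CPM, a ratio to NMuMG of 4.39 (95% exact interval 2.43 to 8.17), and Flna was at 813 and 456 CPM, 0.65 on the log2 scale. Acta2 and Tagln did not stand out. Acta2 had 3 reads in each E1KD library, and Tagln, at 0.516 and 0.381 CPM, lay on both sides of the NMuMG libraries (ratio 0.981, 95% exact interval 0.645 to 1.49).

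Of the 10 members, 3 differed by at least 1 on the log2 scale without overlap (Flnc, Tpm1 and Cald1), all higher in E1KD, where 7.03% of all genes tested were higher in that way, 3.02% lower and 10.0% either. The E1KD libraries differed from each other, and the median of all genes was 0.17 higher in E1KD than in NMuMG. It was 0.04 with equal sums and 0.02 with median-of-ratios factors. Tpm1 and Cald1 were then at 0.84 and 0.83, or 0.82 and 0.80, under the limit, and without E1KD replicate 1 they were at 0.84 and 0.85, so that Flnc alone of the members was past the limit. With those scalings 54.9% or 52.6% of all calls were higher in E1KD, against 68.3%. The smooth muscle and pericyte markers summed to 2.88 to 3.60 CPM in E1KD, above NMuMG, with Mcam at 2.46 and 1.90 CPM against 0.0354 and 0 CPM and with Myh11 at 1 read in each E1KD library. Their part in the result was not tested.

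Among the other pathway genes, 11 rose and 2 fell in E1KD, where 9.44% of all genes tested were called, 6.44% as higher and 2.99% as lower. Pdlim1, an adaptor that binds α-actinin, was at 0 in both NMuMG libraries and at 7.15 and 4.99 CPM in E1KD (log2 fold change 2.80, adjusted p = 1.2e-11 from limma). Gsn rose by 2.65, and Zyx and Actn1, α-actinin 1, by 1.56 each, with adjusted p from 7.7e-08 to 8.5e-06 (limma). Mylk fell from 54.7 and 53.0 CPM to 6.54 and 5.52 CPM (-2.97, adjusted p = 9.1e-12 from limma), and Vil1 fell by 2.34. The calls of Gsn, Zyx, Actn1 and Vil1 were lost when the fit held the E1KD and NMuMG libraries alone. Mkl1 and Mkl2 differed by 0.17 and 0.22 (adjusted p = 0.23 and 0.050 from limma), with Mkl1 at -0.0092 with equal sums and -0.03 with median-of-ratios factors, and Srf by 0.55 (adjusted p = 0.0013), under the fold limit. The median over the 55 genes was 0.39.

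**Figure D2:**
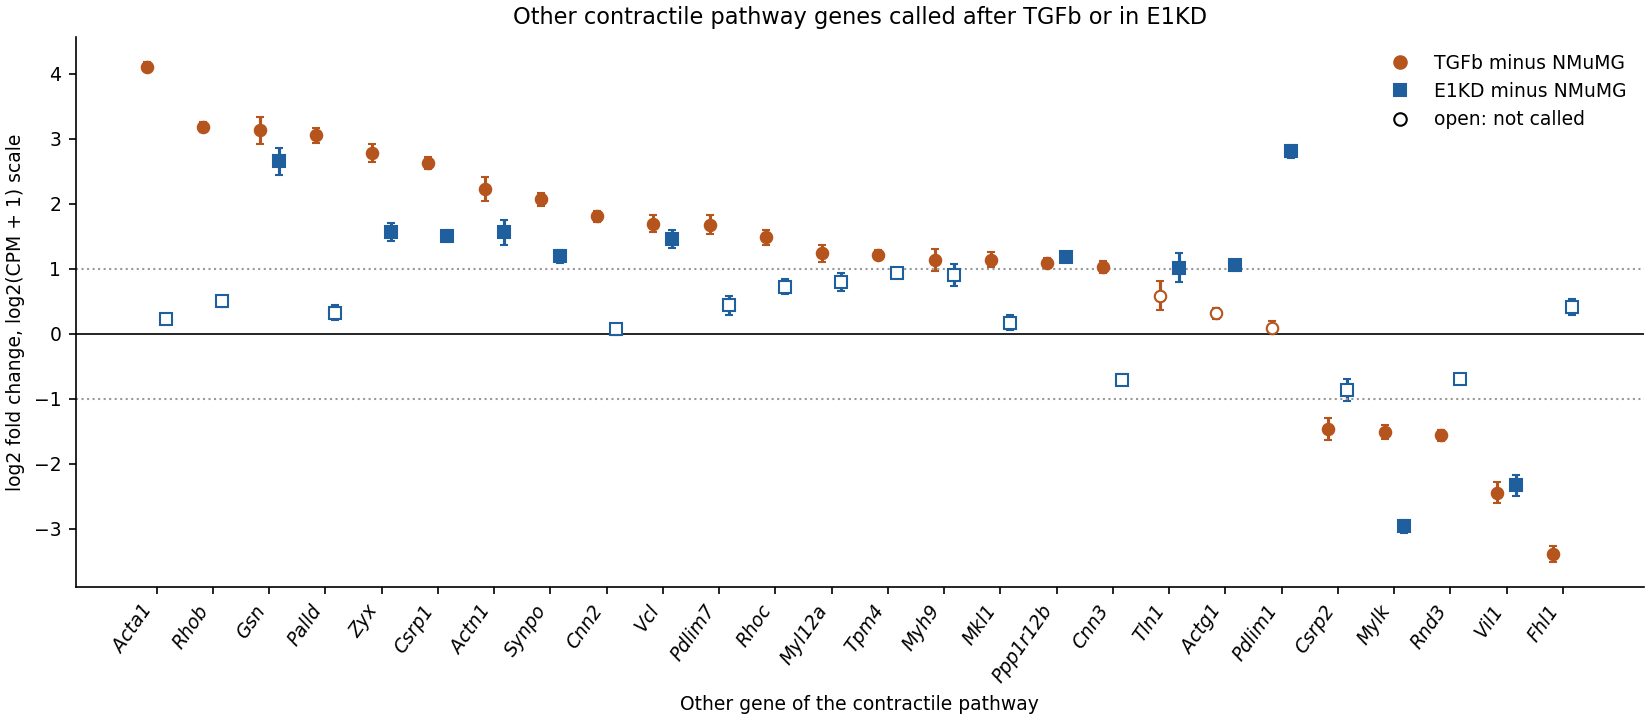
Log2 fold changes of the other contractile pathway genes reported here that were called after TGFβ or in E1KD, with limma standard errors, both relative to the same NMuMG libraries. Filled symbols were called, and dotted lines mark the fold limit of 1. Acta1, Rhob and Palld lie at 3.05 to 4.11 after TGFβ and were not called in E1KD, while Pdlim1 lies at 2.80 in E1KD.

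Set directly against TGFβ-treated cells, E1KD cells had lower Acta2 (-1.32 on the log2 scale), Tagln (-2.66) and Cald1 (-1.51), and higher Flnc (6.31). Thus 3 members were lower and 1 higher past the limit without overlap, where 6.17% and 18.4% of all genes tested were, and 24.6% in either direction. Tpm1 and Cnn1 were lower by less than the limit, at -0.79 and -0.68, and Flna overlapped, at 456 to 813 CPM against 607 to 706 CPM. Of the other pathway genes 3 were higher in E1KD (Fhl1, Pdlim1 and Pfn1, which binds actin monomers) and 11 lower, where 17.2% and 6.17% of all genes tested were called (limma), 23.3% in all. The largest were Acta1 (-3.89), Palld (-2.73), Rhob (-2.69), Cnn2 (-1.74), Cnn3 (-1.73) and, in the other direction, Fhl1 (3.80), Pdlim1 (2.71) and Pfn1 (1.31), with adjusted p of 2.5e-07 or less (limma). With those groups alone in the fit, 7 were called in all. All genes tested had a median of 0.26 in this comparison, which was 0.13 with equal sums and 0.02 with median-of-ratios factors. The share of calls that were higher in E1KD was 73.6%, and 63.1% and 50.2% with those scalings. Mkl1 lay at -0.97 and passed the limit with both, at -1.15 and -1.32. It also passed without E1KD replicate 1, at -1.11, or without TGFβ replicate 1, at -1.05. Pfn1 was at 0.95, under the limit, with median-of-ratios factors. Srf and Mkl2 differed by 0.04 and -0.19, and Srf by -0.15 and -0.32 with those scalings.

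The M1P and L1P lines ask whether the levels of E1KD cells were found again in cells recovered from tumor and lung. Each is a single line that was cultured again, so tumor growth, metastasis, selection and culture cannot be told apart. For Flnc the E1KD levels were not found again. Against 153 and 91.4 CPM in E1KD, M1P had 4.07 and 3.67 CPM. L1P had 0.0785 and 0.0777 CPM, or 4 reads in each library. M1P had 0.0316 times the level of E1KD (95% exact interval 0.0289 to 0.0350) and L1P 0.0202 times that of M1P (0.00866 to 0.0401). No libraries of neighboring lines overlapped. Pcbp1 lay at 26.5 to 27.6 CPM in M1P and 28.6 to 30.5 CPM in L1P, below its NMuMG level in both. M1P had 1.75 times the Pcbp1 level of E1KD (95% exact interval 1.66 to 1.87). The part of this in the Flnc difference was not tested.

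**Figure D3:**
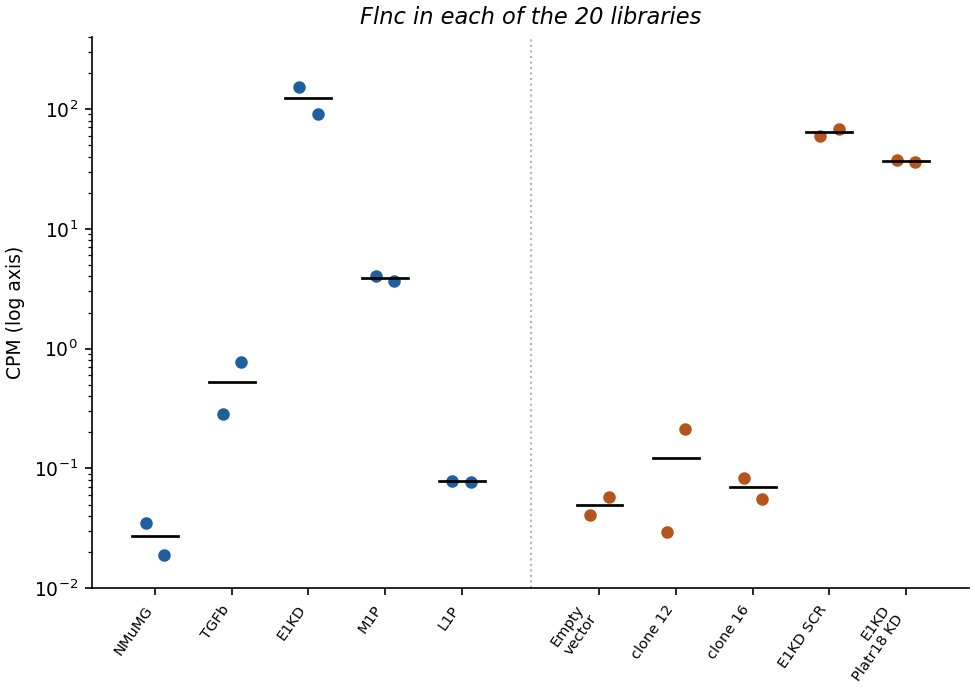
Flnc in each of the 20 libraries, in CPM on a log axis; points are libraries and bars the means of 2. E1KD lies at 91.4 to 153 CPM, M1P at 3.67 to 4.07 and L1P at 0.0777 to 0.0785 CPM, and in the second kind of library (orange) the cells with the hnRNP E1 shRNA lie at 36.1 to 68.0 CPM against at most 0.215 CPM in the others.

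Cald1 did not follow Flnc. Cald1 had 341 and 322 CPM in M1P, and 342 to 346 CPM in L1P, above E1KD, with a log2 difference between M1P and E1KD of 0.35 (0.51 without E1KD replicate 1). Tpm1, at 326 and 332 CPM in M1P and then 317 to 320 CPM in L1P, lay between NMuMG and E1KD. Cnn1 had 0.157 and 0.213 CPM in the M1P libraries and 0.0392 and 0.0777 CPM in those of L1P, or 21 and 6 reads in all, and L1P had 0.316 times the level of M1P (95% exact interval 0.105 to 0.812). Flna lay at 465 to 477 CPM in M1P and 456 to 457 CPM in L1P, and Acta2 had 2 to 4 reads per library in both lines. For Tagln the values were 0.599 and 0.606 CPM in M1P, then 0.509 and 0.302 CPM in L1P.

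Flnc was the 1 member past the fold limit without overlap in either step, lower in both, where 3.03% of all genes tested were lower from E1KD to M1P and 0.474% from M1P to L1P, and 4.19% and 1.22% in either direction. The median of all genes was -0.17 from E1KD to M1P, and -0.04 and -0.02 after the scalings named above, with 32.2% of calls higher in M1P against 48.6% and 50.4%. Of the 55 pathway genes, Smtn, smoothelin, was called lower in M1P (-1.14, adjusted p = 0.00033 from limma) and Pdlim1 lower in L1P, from 11.3 and 10.2 CPM to 4.45 and 4.27 CPM (-1.13, adjusted p = 2.3e-06 from limma). Over all genes tested, 3.59% and 1.21% were called in these steps, 1.16% and 0.742% as higher and 2.43% and 0.468% as lower. The call of Smtn rested on E1KD replicate 1, at 61.4 CPM against 35.1 CPM in replicate 2: without it the log2 fold change was -0.74 and was not called, and with equal sums or median-of-ratios factors it was -0.97 or -0.94. Without E1KD replicate 2, 5 pathway genes were called in this step. Srf and Mkl1 lay at -0.56 and -0.39 from E1KD to M1P (adjusted p = 0.0017 and 0.014 from limma), and Mkl2 at 0.02, and between L1P and M1P the values were -0.0020, -0.14 and 0.11. Des and Mcam, smooth muscle and pericyte markers, had at least 1 CPM in both L1P libraries. That list of 7 markers summed to 4.22 to 5.07 CPM in L1P against 1.98 to 1.99 CPM in M1P. Myh11, Cspg4 and Notch3 of the same list had 3 reads or fewer in each L1P library, and in M1P Myh11 and Notch3 did. The part of these markers was not tested.

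In the second kind of library Acta2 was measurable in every condition, at 1.40 to 2.33 CPM, or 0.0586 to 0.0872% of Actb, whereas outside TGFβ it was at most 0.00805% of Actb in the first kind. Acta1, at 6.83 to 9.08 CPM, and Myh11, at 1.55 to 2.16 CPM, were likewise present in all 10 libraries, and Tagln was at 0 to 0.111 CPM. Kind of library and cells were sequenced together, so these differences cannot be told apart from the way the libraries were made.

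Besides hnRNP E1, the E1KD SCR and empty vector cells differ in the vector and in the scrambled shRNA. Flnc again set the cells with silenced hnRNP E1 apart. It was at 0.0411 and 0.0579 CPM in the empty vector cells and at 59.5 and 68.0 CPM in E1KD SCR, a ratio of 1287 (95% exact interval 624 to 3201) and a log2 difference of 5.94. Tpm1 was at 277 and 281 CPM and at 396 and 397 CPM, 0.51 on the log2 scale. Cald1 overlapped, at 133 and 138 CPM against 143 and 135 CPM, and Flna was at 982 and 1008 CPM against 907 and 910 CPM. Cnn1 was at 0.452 and 0.420 CPM and at 0.338 and 0.318 CPM (ratio 0.752, 95% exact interval 0.502 to 1.12). Actg2 was at 0.0411 and 0 CPM and at 0.108 and 0.206 CPM, 21 reads against 3. Of the 10 members, Flnc alone was past the limit without overlap, where 2.91% of all genes tested were higher in that way, 3.09% lower and 6.00% either. Among the other genes, Pdlim1 rose from 0 and 0.0145 CPM to 1.06 and 1.10 CPM (1.04, adjusted p = 1.1e-06 from limma), and Mylk and Cnn3 fell by 1.64 and 1.17 (adjusted p = 1.1e-08 and 1.2e-07), where 5.98% of all genes tested were called, 2.91% as higher and 3.07% as lower. With equal sums Pdlim1 was at 0.94, and with a pseudocount of 5 at 0.28, and it was not called. The smooth muscle and pericyte markers summed to 2.06 to 2.21 CPM in the empty vector cells and to 4.53 to 4.76 CPM in E1KD SCR, with Mcam at 0.0411 and 0.0290 CPM against 1.597 and 1.223 CPM, and their part was not tested. Srf and Mkl2 were higher by 0.50 and 0.36 (adjusted p = 0.0036 and 0.0042 from limma), under the fold limit, and Mkl1 differed by -0.07.

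Silencing of Platr18 in E1KD cells, compared with E1KD SCR, asks whether these levels depend on Platr18. No member was past the fold limit, where 0.485% of all genes tested were higher, 0.994% lower and 1.48% either. Flnc was at 37.4 and 36.1 CPM against 59.5 and 68.0 CPM, 0.577 times the level (95% exact interval 0.564 to 0.597), and remained far above the empty vector cells. Tpm1 was at 264 and 273 CPM against 396 and 397 CPM, 0.677 times, and Cald1 at 111 and 110 CPM against 143 and 135 CPM, 0.795 times. Cnn1 was at 0.0407 and 0.0477 CPM against 0.338 and 0.318 CPM, or 13 reads against 45 in deeper libraries, and a ratio of 0.135 (95% exact interval 0.0665 to 0.253). With a pseudocount of 0.1 in place of 1 it was past the limit. Acta2 was at 1.42 and 1.45 CPM against 1.75 and 1.62 CPM, and Actg2 at 0.190 and 0.279 CPM against 0.108 and 0.206 CPM, which overlapped. Among the other pathway genes Vil1 rose from 24.3 and 23.4 CPM to 56.0 and 60.0 CPM (1.25, adjusted p = 7.7e-05 from limma), the single call among 55, where limma called 0.485% of all genes tested as higher and 0.994% as lower. Srf, Mkl1 and Mkl2 differed by 0.16, -0.12 and -0.0047.

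Overexpression of Platr18 was compared with the empty vector in each clone. In clone 12 Acta2 was at 2.18 and 2.33 CPM against 1.40 and 1.59 CPM (ratio 1.51, 95% exact interval 1.26 to 1.81), Cald1 at 226 and 227 CPM against 133 and 138 CPM (ratio 1.67), Tpm1 at 357 and 376 CPM (1.31) and Flna at 1274 and 1394 CPM (1.34). In clone 16 Acta2 was at 1.83 and 2.01 CPM (1.28, 95% exact interval 1.07 to 1.55) and Flna at 1067 and 1126 CPM (1.10), while Cald1 was at 123 and 123 CPM (0.910) and Tpm1 at 276 and 291 CPM overlapped the controls. No member was past the fold limit in clone 12, in clone 16 or over both, where 3.67%, 1.78% and 1.25% of all genes tested were. The last share was made of 0.357% higher and 0.889% lower genes, that of clone 12 of 1.14% and 2.53%, and that of clone 16 of 0.772% and 1.01%. Cald1 thus lay above the controls in one clone and below them in the other. Flnc did not exceed 0.215 CPM in either clone, and Platr18 was at 813 CPM or more there. A link between these levels was not tested.

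Among the other pathway genes, Cfl2, the muscle cofilin, fell in clone 12 from 75.6 and 73.0 CPM to 20.6 and 19.8 CPM (-1.83, adjusted p = 5.9e-10 from limma), and Vil1, Fhl1 and Mylk fell by 1.90, 1.40 and 1.18 (adjusted p = 5.3e-07, 7.8e-07 and 7.2e-07). In clone 16 Gsn rose by 1.20 (adjusted p = 0.00070 from limma) and Csrp2 fell by 1.21 (adjusted p = 0.00014). Over both clones the mean change of Vil1 was -1.20 (adjusted p = 2.0e-05 from limma), but Vil1 was not called in clone 16 alone. It was higher in clone 16 than in clone 12 by 1.41. In all there were 4, 3 and 2 calls among 55 genes, beside 3.65% (1.13% higher, 2.52% lower), 1.78% and 1.46% (0.427% higher, 1.03% lower) of all genes tested. Without clone 16 replicate 2, 1 gene was called over both clones. Mkl1 was higher by 0.27 in clone 12 and by 0.53 in clone 16 (adjusted p = 0.075 and 0.0040 from limma), Mkl2 by -0.28 and 0.21 and Srf by 0.16 and -0.06.

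**Figure D4:**
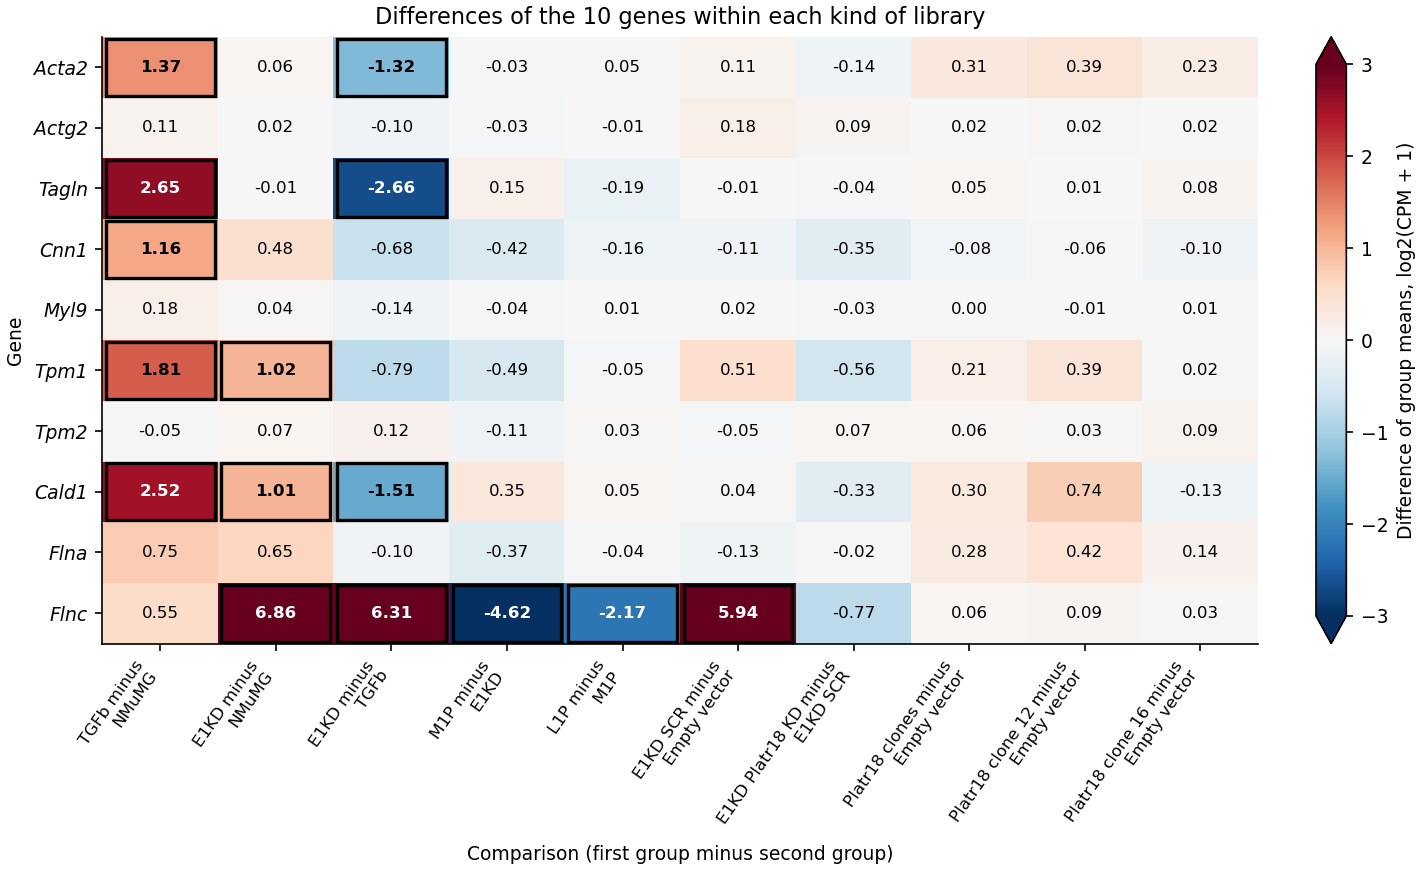
Difference of group means on the log2(CPM + 1) scale for the 10 members (rows) in the 10 comparisons (columns), first group minus second. Boxed values were at least 1 in size with libraries that did not overlap. Boxes cover 5 members after TGFβ, 3 in E1KD, 4 in E1KD against TGFβ and Flnc alone in M1P, L1P and E1KD SCR, and none with Platr18 silenced or overexpressed; the color scale ends at 3.

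Across the 10 condition means, centered within each kind of library, the pattern of Acta2 was most like that of Tagln among the 7 members that passed the filter (Pearson r = 0.963), followed by Cnn1 (0.865), Tpm1 (0.829) and Cald1 (0.794), and was unlike that of Flnc (-0.269). These values describe 10 points, and the TGFβ mean weighs on each. Over all genes tested, the patterns most like that of Acta2 were those of Lilrb4a (0.987), Myo1g (0.986), Nppb (0.985), Mamdc2 (0.982) and Fosb (0.982), and those most like Tagln were a gene listed by its clone name alone (0.999), Oacyl (0.998), Prss46 (0.998), Iglon5 (0.998) and Ctsw (0.998). Tagln reached 1 CPM, and so passed the filter, only through the TGFβ libraries. The 5 genes most like it had means of at most 0.0284 CPM in NMuMG and of 1.05 to 12.6 CPM after TGFβ. Their r near 1 thus follows from that condition and is a description only.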

How the data were processed

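Per the labels and the methods, reads were aligned by the authors with Bowtie2 2.2.5 to GRCm38.p6, assigned to the M18 annotation by Partek's expectation-maximization method, and deposited as CPM with 0.0001 added to every value. The library protocol, read length and strand of counting are not given in the sources used here. Of the values under 20 reads, 90.7% to 92.1% (NMuMG, TGFb, E1KD, M1P, L1P) and 96.6% to 97.4% (the other conditions) were whole multiples of 1 read (tolerance 0.05), so counts were not recovered and the read numbers given are approximate. Intervals and the floor of 3 reads cover counting error only.

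Groups and replicate numbers came from the labels. The members and gene lists were chosen with earlier results of these data known, so members are described without a test. The other 65 pathway genes were tested with limma 3.58.1 (R 4.3.3) on log2(CPM + 1), in 1 fit of 20 libraries of which the 10 condition means left 10 residual degrees of freedom, over the 17106 genes that reached 1 CPM in 2 or more of the libraries. Some genes are counted but not reported by name here. A call needed an unadjusted p under 0.001 and a log2 fold change of at least 1. Named pathway genes were up to 5 higher and 5 lower calls per comparison without overlap, with the largest changes, plus Srf, Mkl1 and Mkl2, Pcbp1 and Platr18, and the 5 genes most like Acta2 and Tagln. The numbers are only shared between groups (correlation of deviations -0.395 to 0.127). On simulated data of TGFb against NMuMG, 99 of 100 genes with a change of 1.5 and 100 of 100 with a change of 3 were called, and 0 of 16906 unchanged genes. Changes were planted only in genes above 2 on the log2(CPM + 1) scale in NMuMG, with independent noise of each gene's spread. Lower genes and shifts of a whole library were thus not covered. Alternatives covered filter, pseudocount, scaling, libraries in the fit, replicate block, call rule and leaving out each library. Python 3.11.15, numpy 2.4.6, pandas 2.3.3, scipy 1.17.1 and matplotlib 3.10.9 made the tables and plots, and promoters and gene models came from RefSeq GRCm38.p6 and GENCODE M21.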

Additional observations from a re-analysis of the deposited data

Results flagged for a closer look

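Some effects of like contrasts differed between settings. The contrasts of hnRNP E1 silencing were not fully matched, since E1KD SCR cells also carried a scrambled shRNA and their controls an empty vector. On the log2 scale Platr18 differed by 2.87 between E1KD and NMuMG and by -0.12 between E1KD SCR and empty vector cells. Kind of library, vector and added shRNA cannot be told apart here. Among the other pathway genes, these contrasts differed (limma interaction) for Pdlim1 by 1.76, Gsn 1.73, Actn1 1.58, Zyx 1.27 and Smtn 1.20. All of these were more positive in the E1KD comparison with NMuMG. Vil1 differed by -1.39 and Mylk by -1.32. The adjusted p of all these genes lay between 6.5e-07 and 0.0057 (limma). In all, 9 of 55 genes were called, among them Synpo at 1.06. Over all genes tested, 3.51% were called (2.57% more positive, 0.947% more negative). The median of all genes in this contrast was 0.17. It was -0.01 without E1KD replicate 1, 0.0069 with equal sums and 0.04 with median-of-ratios factors. The part of that library in the differences named here was not tested. The effect of Platr18 overexpression differed between clone 16 and clone 12 for Cfl2 by 2.01, Vil1 by 1.41 and Csrp2 by -1.06 (adjusted p = 1.7e-10, 8.5e-06 and 0.00018 from limma), among 4 calls of 55 genes, where 4.38% of all genes tested were called (2.71% higher in clone 16, 1.68% lower).

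Members whose libraries all moved one way in one setting and the opposite way in the other were not tested for the difference. With hnRNP E1 silenced, Cnn1 was at 0.485 in the first kind of library and -0.113 in the second, Tpm2 at 0.068 and -0.054, and Flna at 0.651 and -0.131, on the log2 scale. Tpm2 had 10 reads against 5 and 8 against 14. The 95% exact intervals of its ratios, 0.650 to 7.78 and 0.216 to 1.52, held 1. So did that of Cnn1 in the second kind, 0.502 to 1.12. Flna in the first kind was at 0.24 without E1KD replicate 1. Cald1 was at 0.737 in clone 12 and -0.135 in clone 16. Groups of 2 libraries were not examined for single outlying samples.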

How the results depend on the processing

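Counts of members past the limit moved by over 1.5 times under some settings. After TGFβ the 5 members became 2 when genes had to average 5 CPM or more and 3 with pseudocount 5. The filter changed no member's value and only left out Acta2, Tagln and Cnn1 of the 5. In E1KD the 3 members became 1 with equal sums and 1 with median-of-ratios factors, and between 1 and 4 with each library left out (1 without E1KD replicate 1, 4 without E1KD replicate 2). The 4 members in E1KD against TGFβ became 2 under that stricter filter, which left out Acta2 and Tagln. With pseudocount 0.1 the count was 2 in M1P, 2 in E1KD SCR and 1 with Platr18 silenced, where it had been 1, 1 and 0, and with pseudocount 5 it was 0 between L1P and M1P. Leaving out a library kept the other counts of members.

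Calls among the other pathway genes moved too. With the compared groups alone in the fit, 3 in place of 13 were called in E1KD, 7 in place of 14 in E1KD against TGFβ and 0 in M1P, and 3 in place of 9 for the difference of hnRNP E1 silencing between kinds of library. From E1KD to M1P, 3 were called with pseudocount 0.1 and 0 with equal sums, with median-of-ratios factors or with libraries of the same kind, against 1, and leaving out a library gave 0 to 5. Between L1P and M1P there were 0 with the stricter filter of 5 CPM, 2 with pseudocount 0.1 and 0 with pseudocount 5. With pseudocount 0.1 there were 3 with Platr18 silenced and 4 over both clones, and with pseudocount 5 there were 1 over both clones, 2 in clone 12, 5 for the difference of hnRNP E1 silencing and 2 for that between clones. Leaving out a library gave 1 to 2 between L1P and M1P (2 without L1P replicate 2), 1 to 2 with Platr18 silenced (2 without its replicate 1), 1 to 3 over both clones (1 without clone 16 replicate 2) and 6 to 14 for the difference of hnRNP E1 silencing (6 without E1KD replicate 1, 14 without E1KD replicate 2). The cause was not tested. Of 1898 values of single genes, 42 (28 results, each of 0.37 or less in size) had another sign than reported, such as Flna from E1KD to M1P, -0.37 and 0.04 without E1KD replicate 1, and Flna with Platr18 silenced, -0.02 and 0.04 with equal sums. None was of a value past the fold limit.

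With the replicate number as a block, 24 genes were called after TGFβ, 13 in E1KD, 14 in E1KD against TGFβ and 8 rather than 9 for the difference between kinds of library, and no other count of calls changed. Crossed pairing, added after seeing the data, gave 14 in E1KD against TGFβ, 2 over both clones and 3 in clone 16. With 2 libraries a group the spread is poorly known, and values of Acta2, Cnn1, Myl9, Actg2 and Tpm2 rest on few reads.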
